A study of Rattus norvegicus with 12 samples.

Results

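The nuclear receptors that sense bile acids (BA), and the genes they work with, were read across rat liver during regeneration. The members were taken by gene symbol from a list of 9. NR1H4 (Fxr), NR1H3 (Lxr alpha), NR1I2 (Pxr), NR1I3 (Car), RXRA (Rxr alpha), NR0B2 (Shp), NR5A2 (Lrh-1) and FGFR4 were found among the 14692 genes of the deposited table, which makes 8 members. KLB, which encodes the coreceptor of FGFR4, was not analysed here. All 8 members had a mean of at least 1 RPKM (reads scaled by transcript length and by library total) over the 12 columns and were therefore among the 8459 genes tested.

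RNA of whole liver from male Sprague Dawley rats, 4 to 5 months old, was sequenced in 3 arms at 0, 4, 12 and 24 h after partial hepatectomy (PH). A biliary fistula or a sham operation (Control) was made 24 h before PH, and saline ran into the duodenum of every rat. The fistula drains bile out of the body, and in 1 of the fistula arms the bile salt sodium taurocholate was returned to the gut, starting 12 h before PH, at a rate of 0.5 mg per g body weight and day. There is 1 column per arm and time, and behind each column stand 4 rats, as 1 run on RNA of 1 rat and 1 run on combined RNA of 3 rats. No column gives the value of a single rat, so that no value has an error between rats and a difference between 2 columns has no replicate check. Every rat had PH and livers were taken at fixed hours after it, so that at 4 and 12 h time after PH and time of day cannot be told apart. The 24 h columns lie a full day after 0 h, and the clock hours are not given.

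The names of the fistula arms conflict between sources. In the study's figures BF is the drained fistula and BA the fistula with infusion, whereas the sample descriptions place the infusion on the samples titled BF and none on those titled BA. Columns are called BF and BA here by their titles alone. CYP7A1 encodes the enzyme that limits the rate of BA production, and at 0 h its level was 60 RPKM for Control, 387 RPKM for BF and 54.9 RPKM for BA. For CYP8B1, which acts later in the pathway, the levels were 136, 1576 and 110.2 RPKM in the same order. By quantitative PCR, the study reports raised liver Cyp7a in drained rats before PH, which the infusion reversed. The 0 h levels under the titles BF and BA ran in that direction. The sample descriptions still state the opposite, and the names were not assigned from these values. If the names were exchanged, BF against Control and BA against Control would change places and BF against BA would change its sign.

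Nuclear receptors are transcription factors that are switched by small lipophilic molecules. Fxr binds BA, Lxr oxysterols, and Pxr and Car a wide range of drugs and endogenous lipids, some BA among them. These receptors bind DNA as pairs with an Rxr. In liver, Fxr activates the gene of Shp, and Shp, which has no DNA-binding domain, holds back Lrh-1 and other activators of CYP7A1 and CYP8B1. From the intestine, BA reach the same genes through the hormone Fgf15, which acts on hepatocytes through Fgfr4 with its coreceptor beta-Klotho (KLB).

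Upstream sequences of the genes with the widest and the narrowest range of levels are shown first, because their levels are compared below. Each run is the 250 bases before the annotated start of the gene, 5′ to 3′ on the coding strand, from RefSeq on the GRCr8 assembly. The NR0B2 run lies at chr5:151062910-151063159 on the + strand, the NR1I3 run at chr13:86165170-86165419 on the + strand and the RXRA run at chr3:31387642-31387891 on the + strand. Capitals mark a match to CAAGGNCA, an Lrh-1 site with its 6th base left free, a form that was added after the stricter CAAGGTCA had found no match in a member.
NR0B2: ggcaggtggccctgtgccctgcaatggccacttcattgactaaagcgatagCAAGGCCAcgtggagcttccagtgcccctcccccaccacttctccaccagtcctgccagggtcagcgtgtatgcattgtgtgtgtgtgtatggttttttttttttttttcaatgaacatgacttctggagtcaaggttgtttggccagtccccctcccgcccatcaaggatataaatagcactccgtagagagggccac
NR1I3: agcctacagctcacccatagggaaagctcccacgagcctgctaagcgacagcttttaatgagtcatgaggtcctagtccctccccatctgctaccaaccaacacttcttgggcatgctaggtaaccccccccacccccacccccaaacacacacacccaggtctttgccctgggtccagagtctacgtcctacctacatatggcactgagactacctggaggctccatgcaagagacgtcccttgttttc
RXRA: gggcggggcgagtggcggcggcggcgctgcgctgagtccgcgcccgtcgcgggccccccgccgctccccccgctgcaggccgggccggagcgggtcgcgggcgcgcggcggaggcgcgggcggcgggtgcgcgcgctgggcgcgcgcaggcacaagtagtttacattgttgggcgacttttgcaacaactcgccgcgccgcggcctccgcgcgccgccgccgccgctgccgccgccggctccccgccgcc
The match in the NR0B2 run, CAAGGCCA, starts 199 bases before the start site, and a TATAAA starts 29 bases before it. On either strand, CAAGGNCA was found in 5.58% of the 33469 promoters of the table over the same 250 bases, and TATAAA in 12.9%. NR1I3 and RXRA held neither. The RXRA run had 82.8% G or C and 52 CpG dinucleotides, against 52.8% and 5 in NR0B2 and 55.6% and 4 in NR1I3. The median promoter had 51.2% G or C and 5 CpG, and 0.481% of all promoters reached the G or C share of RXRA.

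The binding motifs of the receptors themselves were searched on both strands of the same windows. The core motif AGGTCA was found in 14.1% of all promoters, and among the members in NR5A2, 134 bases before the start, and in FGFR4, 196 bases before it. Its inverted repeat with 1 base between (IR1, AGGTCANTGACCT), which Fxr binds with Rxr, was found in 0.0269% of promoters and in no member. Its direct repeat with 4 bases between (DR4, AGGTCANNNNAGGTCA) was found in 0.00299% of promoters and in no member. IR1, DR4 and CAAGGTCA contain AGGTCA, so that each of their matches is also a match to it. CAAGGTCA was found in 1.33% of promoters. NR1H4 had no entry in the promoter table.

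In 2 columns other transcripts stood apart. In BA at 4 h albumin (ALB) was at 303637 RPKM, 30.9% of the column's summed RPKM, against 5.6% to 13.4% in the other 11 columns, and the sum itself was 982826 RPKM against 727435 to 785092. Because of the division by total reads, a transcript that takes a large share of a library can lower the values of all others in it. How far this holds for BA at 4 h was not tested, since its summed RPKM rose along with albumin. Its median tested gene lay 0.306 below the gene's mean over the columns on the log2 scale, the lowest of the 12 columns. In BF at 12 h the 9 pancreatic acinar markers that were found in the table summed to 143.19 RPKM, against 5.22 to 23.36 RPKM elsewhere, and 8 of the 9, CTRB1 and PRSS1 among them, were highest in that column. The other marker, CELA1, was at 6.03 RPKM there and made up most of the sum in every other column, such as 22.53 of 23.36 RPKM in Control at 0 h. The 4 hepatocyte markers found summed to between 71325 and 337432 RPKM, and the 3 cholangiocyte markers to between 4.95 and 13.5 RPKM. Calls of members and counts of list genes given here that changed without either column are given with both values.

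RXRA, the common partner, had the highest level of the members, with a mean of 132 RPKM over the 12 columns. NR1H3 followed with 97.3 RPKM and NR1I2 with 73.6 RPKM. The mean was 32.6 RPKM for NR1H4, 22.7 RPKM for NR1I3, 21.0 RPKM for NR5A2, 14.6 RPKM for FGFR4 and 11.4 RPKM for NR0B2. In this order of levels per transcript length, the ranges over the columns overlapped for every pair of neighbours. The highest column of RXRA was 1.71 times its lowest, and that ratio was 1.96 for FGFR4, 2.13 for NR5A2, 2.32 for NR1I2, 4.43 for NR1H3 and 4.83 for NR1H4. It was 45.7 for NR1I3 and 117 for NR0B2, which set these 2 genes apart from the rest in range.

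**Figure D1:**
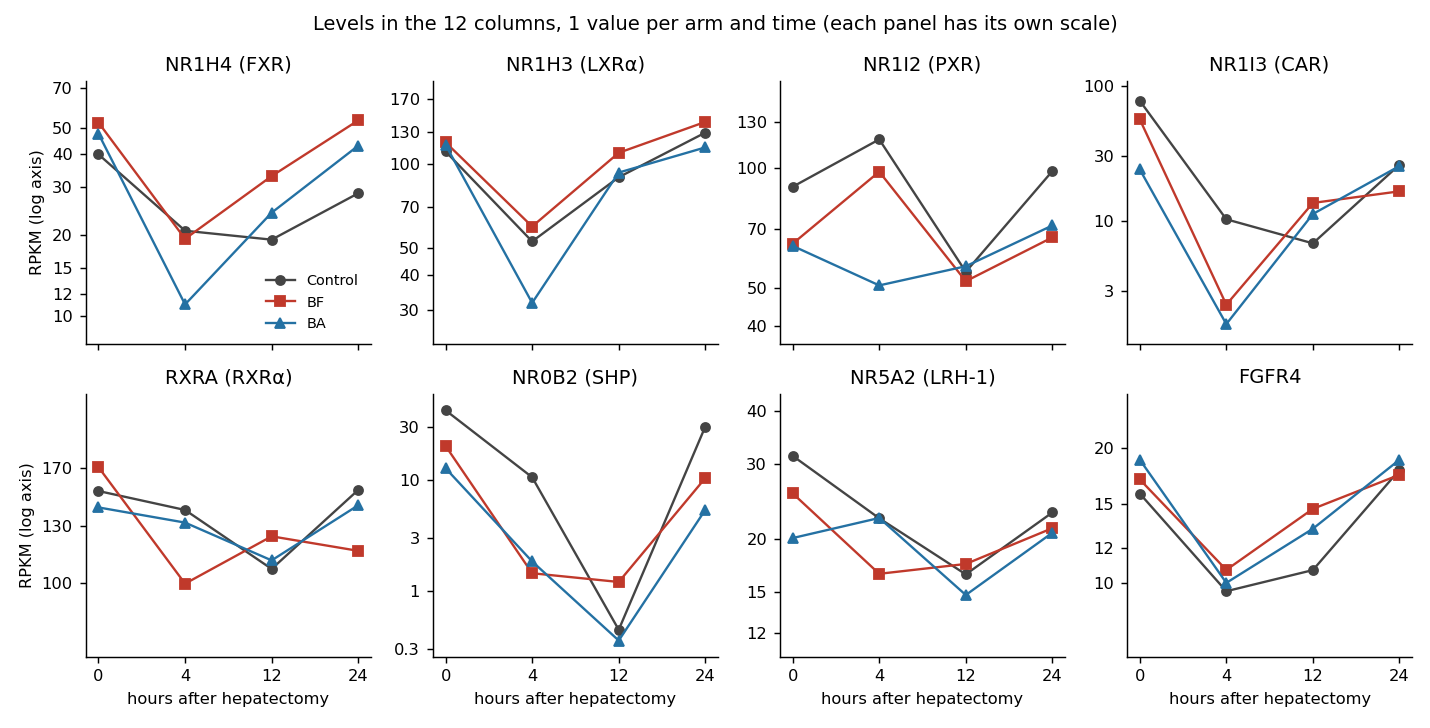
Level of each member in RPKM (log axis, own scale in each panel) against hours after PH, 1 point per column, with Control as circles, BF as squares and BA as triangles. NR0B2 and NR1I3 cover the widest ranges, 0.36 to 42.3 RPKM and 1.70 to 77.8 RPKM, and RXRA the narrowest in ratio, 99.65 to 170.3 RPKM.

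Whether the members changed after PH was asked in an additive fit of arm and time (limma on log2 of RPKM + 1, Benjamini-Hochberg over 8459 genes). Its adjusted p measures whether a change was steady over the 3 arms, not the spread between rats, and the 3 times share the 0 h columns. NR1H4, NR1H3, NR1I3, NR0B2 and FGFR4 fell between 0 and 4 h, which makes 5 of 8 members called, all lower, where 45.3% of all genes tested were called, 32.4% lower and 12.9% higher. At 12 h NR1H4, NR1I3, NR0B2, NR5A2 and FGFR4 were below 0 h, again 5 of 8, where 31.5% of genes were called, 22.5% lower and 9.03% higher. At 24 h no member passed in limma, and none had an unadjusted p under 0.05, where 36.1% of genes were called, 5.54% lower and 30.6% higher. The median log2 difference of the members was -1.0 at 4 h, -0.53 at 12 h and -0.19 at 24 h, against -0.20, -0.12 and 0.21 over all genes tested. In bulk liver, fewer cells of a type and less RNA per cell cannot be told apart. Summed levels of markers of other liver cells differed between times, with no test. The 5 stellate cell or fibroblast markers summed to 64.7, 42.6, 30.3 and 54.5 RPKM in Control at 0, 4, 12 and 24 h, to 71.9, 51.7, 41.8 and 54.2 RPKM in BF and to 55.8, 46.8, 38.8 and 63.7 RPKM in BA, lowest at 12 h in each arm. The sums of the 5 Kupffer cell or macrophage markers (125 to 223 RPKM) and the 2 endothelial markers (31.0 to 55.1 RPKM) were also lowest at 12 h in each arm. Such sums weigh the most abundant genes most, and single markers did not all follow them. For example, MARCO and DCN in BF, DES in Control and the hepatocyte marker SERPINA1 in Control and BF were higher at 12 h than at 0 h. No marker found of these lists was at 0 in every column, and their part in the members' changes was not tested.

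At 4 h the same 5 members were called when each arm was left out in turn, with NR5A2 as a 6th without BA. Without the BA column at 4 h, 7 members were called, since NR5A2 at -0.46 (adjusted p = 0.039) and NR1I2 at 0.54 (adjusted p = 0.0225) then passed. The calls at 12 h rested on all arms: without Control only NR0B2 and NR1H4 remained, without BF only NR0B2, and without BA NR0B2, NR1I3 and NR5A2. Without the BF column at 12 h, the 5 members kept their call and RXRA at -0.57 (adjusted p = 0.0447) was added. With each column rescaled so that its median gene lay at the mean over columns, the 5 calls at 4 h stood and NR5A2 at 12 h did not pass (adjusted p = 0.0551).

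**Figure D2:**
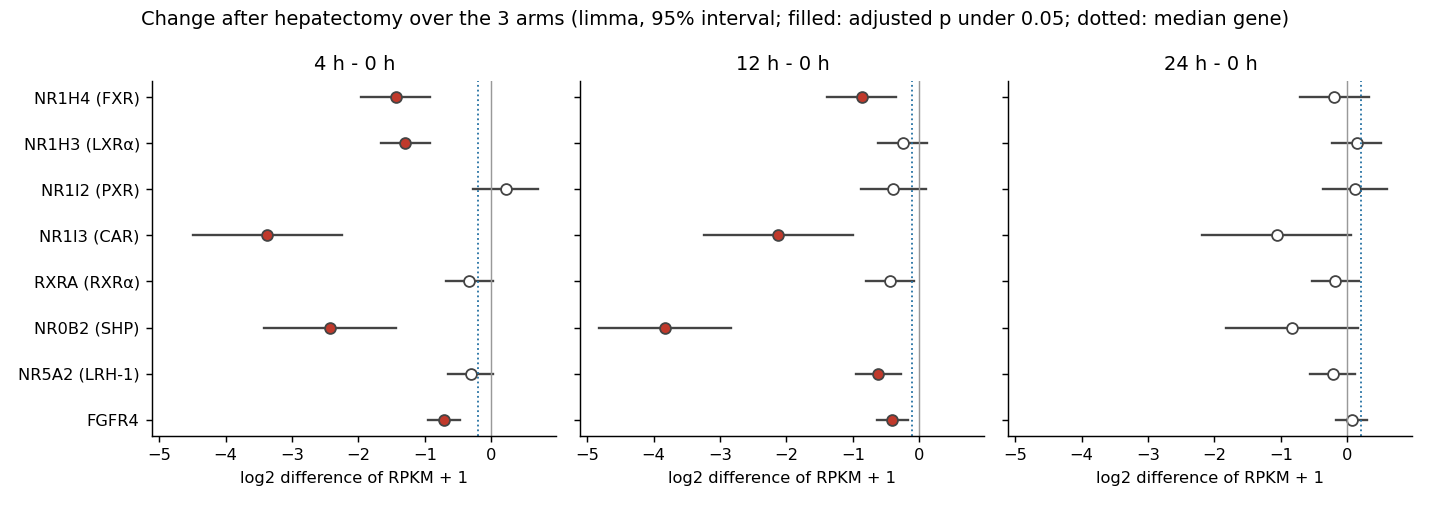
Log2 difference of RPKM + 1 from 0 h at 4, 12 and 24 h for the 8 members, as limma estimates over the 3 arms with 95% intervals, filled where the adjusted p was under 0.05, with the median of all genes tested as a dotted line. At 4 h NR1I3 lies lowest at -3.37 and at 12 h NR0B2 at -3.83, and at 24 h every interval holds 0.

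Within single arms a member was called where its log2 ratio to 0 h was 1 or more in size, with no test, and every such call was of a lower level. In Control these were NR0B2, NR1H3 and NR1I3 at 4 h (9.2% of all genes called), NR0B2, NR1H4 and NR1I3 at 12 h (13.9%) and NR1I3 at 24 h (11.3%). In BF they were NR0B2, NR1H4 and NR1I3 at 4 h (12.0%), NR0B2 and NR1I3 at 12 h (7.61%) and NR1I3 at 24 h (11.1%). In BA they were NR0B2, NR1H3, NR1H4 and NR1I3 at 4 h (17.8%), NR0B2 and NR1I3 at 12 h (7.06%) and NR0B2 at 24 h (5.24%). NR0B2 and NR1I3 were thus called at 4 h and 12 h in each arm with the values as deposited. With rescaled columns 3 of these calls were lost, NR1H3 at 4 h in Control (-0.90), NR1H4 at 12 h in Control (-0.85) and NR1I3 at 12 h in BA (-0.91), and NR0B2 at 24 h in BF was added (-1.18).

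NR1H4, the gene of the BA receptor Fxr, fell early, and at 24 h it was 1.02 times its 0 h level in BF, 0.90 times in BA and 0.72 times in Control. In Control it was at 39.7 RPKM at 0 h, 20.7 at 4 h, 19.2 at 12 h and 28.5 at 24 h. In BF it was at 52.2, 19.3, 33.0 and 53.2 RPKM in the same order, and in BA at 47.4, 11.01, 24.1 and 42.8 RPKM. The 3 columns at 4 h and the 3 at 12 h all lay below the 3 at 0 h, and those at 24 h overlapped them. The log2 difference from 0 h was -1.44 ± 0.23 (SE) at 4 h, with an adjusted p of 0.00155, and -0.87 ± 0.23 at 12 h, with an adjusted p of 0.0206. At 24 h it was -0.19 ± 0.23 (adjusted p = 0.536). The call at 12 h was lost without BF (adjusted p = 0.102) and without BA (adjusted p = 0.0575). BA at 4 h, the lowest value of NR1H4, is the column in which albumin took 30.9% of the sum, and without it the difference at 4 h was -1.15 (adjusted p = 0.00511).

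Genes that Fxr is known to regulate were taken as a list of 16, of which 10 were tested. At 12 h 5 of these were lower than at 0 h and 1 was higher, and 4 lower and 1 higher were called without any 1 arm. At 4 h 3 were lower and 1 higher, and at 24 h 3 were lower. Without the BA column at 4 h 2 were lower at 4 h, and without the BF column at 12 h 4 were lower at 4 h, 6 at 12 h and 2 at 24 h, where 1 was then higher. SLC10A1, the sodium-dependent BA uptake carrier, fell by 2.95 ± 0.21 (SE) on the log2 scale at 12 h (adjusted p = 0.000148), from 446 to 616 RPKM at 0 h to 56.0 to 87.6 RPKM. BAAT, which conjugates BA with taurine or glycine, was lower at 12 h (log2 difference -2.28, adjusted p = 0.00118) and at 4 h (log2 difference -1.69, adjusted p = 0.00242). The uptake carrier SLCO1B2 was lower at 12 h (log2 difference -2.17, adjusted p = 0.000958). FGB, the fibrinogen beta chain and an acute phase gene as well as an Fxr target, rose by 1.71 at 12 h (adjusted p = 0.00361). The list's median log2 difference at 12 h was -0.74. It does not mark which genes Fxr raises and which it lowers, so these counts and this median do not measure Fxr activity. Of all genes tested, 32.4% were called lower and 12.9% higher at 4 h, 22.5% and 9.03% at 12 h, and 5.54% and 30.6% at 24 h. ABCB11, the bile salt export pump, is listed at 0 RPKM in all 12 columns, and so is ABCC2, among 2303 such genes in the deposited table. Whether such a 0 stands for no transcript or for a gene missed in mapping or annotation is unknown.

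NR1H3, the gene of the oxysterol receptor Lxr alpha, fell at 4 h and was back near its starting level by 12 h. Control had 111 RPKM at 0 h, 52.8 at 4 h, 89.5 at 12 h and 129 at 24 h. BF had 119, 59.7, 109 and 141 RPKM, and BA 117, 31.8, 93.0 and 114 RPKM. All 3 columns at 4 h were below every other column of the gene. The log2 difference was -1.29 ± 0.16 (SE) at 4 h (adjusted p = 0.000603) and -0.25 ± 0.16 at 12 h (adjusted p = 0.270). At 24 h it was 0.14 ± 0.16 with an adjusted p of 0.513, a sign that turned to -0.073 with rescaled columns.

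Of 13 genes listed as Lxr targets 11 were tested, NR1H2, the gene of Lxr beta itself, among them. At 4 h 2 were higher and 4 lower, against 12.9% and 32.4% of all genes. At 12 h 1 was higher and 4 lower, against 9.03% and 22.5% of all genes. These counts were not stable, since at 4 h 2 higher and 0 lower were called with rescaled columns, 0 higher and 2 lower without the BA column at 4 h, and none without the BA arm. At 12 h none was called without BF, and 4 lower and none higher without the BF column at 12 h. SCD1, a fatty acid desaturase, was 1.69 higher at 4 h (adjusted p = 0.0276), and 1.08 higher without the BA column at 4 h (adjusted p = 0.123). The cholesterol exporter ABCA1 was 0.88 higher at 4 h (adjusted p = 0.0129), with an adjusted p of 0.0510 without that column. ABCG5, a canalicular sterol transporter, was lower at 12 h (log2 difference -1.55, adjusted p = 0.0261). The phospholipid-remodelling enzyme LPCAT3 was lower at 12 h (log2 difference -0.80, adjusted p = 0.00727).

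NR1I3, the gene of Car, showed the deepest fall of the members at 4 h. In Control it went from 77.8 RPKM at 0 h to 10.2 at 4 h, 6.77 at 12 h and 26.0 at 24 h. In BF it went from 56.6 to 2.37, 13.5 and 16.5 RPKM, and in BA from 24.0 to 1.70, 11.2 and 25.4 RPKM. Every column at 4 h and 12 h was below every column at 0 h. Control was lowest at 12 h, whereas BF and BA were lowest at 4 h. The log2 difference from 0 h was -3.37 ± 0.50 (SE) at 4 h (adjusted p = 0.00109), -2.12 ± 0.50 at 12 h (adjusted p = 0.0126) and -1.06 ± 0.50 at 24 h (adjusted p = 0.122). At 12 h the adjusted p was 0.0511 without Control, 0.0785 without BF and 0.0256 without BA.

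NR1I2, the gene of the related receptor Pxr, did not follow NR1I3. Control had 89.5 RPKM at 0 h, 118 at 4 h, 54.8 at 12 h and 98.0 at 24 h. BF had 64.5, 97.6, 51.9 and 66.8 RPKM, whereas BA had 63.6, 50.7, 56.6 and 71.6 RPKM. At 4 h Control and BF were above their 0 h columns, by 1.31 times and 1.51 times, and BA was below its own. The log2 difference was 0.22 ± 0.22 (SE) at 4 h (adjusted p = 0.429) and -0.39 ± 0.22 at 12 h (adjusted p = 0.198). Without the BA column at 4 h, in which albumin was high, these were 0.54 (adjusted p = 0.0225) and -0.39 (adjusted p = 0.0396). The correlation of NR1I2 with NR1I3 over the 12 columns was r = 0.18, on log2 of RPKM + 1, as a description of columns that share arms and times.

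Pxr and Car drive genes of drug and steroid metabolism, and 13 of 20 listed were tested. At 12 h 8 of the 13 were lower than at 0 h and none was higher, against 22.5% and 9.03% of all genes. The median log2 difference of the 13 was -1.15. The count was 6 lower without BF and 6 without BA, where 1 gene was then higher, and 2 without Control, and it was 9 without the BF column at 12 h. GSTA2, a glutathione transferase, was lower at 12 h (log2 difference -2.57, adjusted p = 0.00483) and so was the steroid hydroxylase CYP3A2 (log2 difference -2.30, adjusted p = 0.00148). CYP3A2 fell from 1569 to 2405 RPKM at 0 h to 264 to 543 RPKM at 12 h. CYP3A18 was lower at 12 h (log2 difference -1.26, adjusted p = 0.0212). ABCB1B, a drug efflux pump, was higher by 2.63 at 24 h (adjusted p = 0.000529), from 2.79 to 7.38 RPKM at 0 h to 28.3 to 42.4 RPKM. The CYP3A genes are close copies of each other and their reads may be shared between them.

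RXRA, with which the 4 receptors above pair, had the narrowest range. It was at 153, 139.9, 107 and 153 RPKM in Control at 0, 4, 12 and 24 h. It was at 170.3, 99.65, 124 and 116 RPKM in BF, and at 142, 132, 111 and 143 RPKM in BA. The 3 columns at 4 h and the 3 at 12 h lay below the 3 at 0 h, and those at 24 h overlapped them, with BF lowest of the arms at 4 h and at 24 h. The log2 difference was -0.33 ± 0.16 (SE) at 4 h (adjusted p = 0.115), -0.44 ± 0.16 at 12 h (adjusted p = 0.0613) and -0.18 ± 0.16 at 24 h (adjusted p = 0.404).

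NR0B2, the gene of the corepressor Shp, had the widest swing of all members. In Control it went from 42.3 RPKM at 0 h to 10.6 at 4 h and 0.45 at 12 h, a level 93.9 times lower, and was at 30.2 RPKM at 24 h. In BF it went from 20.2 RPKM to 1.45, 1.21 and 10.4 RPKM, and in BA from 12.7 RPKM to 1.85, 0.36 and 5.38 RPKM. Every column at 4 h and 12 h lay below every column at 0 h. At 12 h the 3 arms lay within 0.36 to 1.21 RPKM, and the number of reads behind such low values is unknown. The log2 difference from 0 h was -2.43 ± 0.44 (SE) at 4 h (adjusted p = 0.00267), -3.83 ± 0.44 at 12 h (adjusted p = 0.000793) and -0.83 ± 0.44 at 24 h (adjusted p = 0.170). Adding 1 RPKM understates the change of so low a gene. The calls at 4 h and 12 h held when each arm was left out.

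NR5A2, the gene of Lrh-1, which Shp represses, moved over a narrow range. Control had 31.4 RPKM at 0 h, 22.4 at 4 h, 16.5 at 12 h and 23.1 at 24 h. BF had 25.6, 16.5, 17.4 and 21.2 RPKM, and BA 20.1, 22.4, 14.7 and 20.7 RPKM. The 3 columns at 12 h lay below the 3 at 0 h. The log2 difference was -0.31 ± 0.15 (SE) at 4 h (adjusted p = 0.122), -0.61 ± 0.15 at 12 h (adjusted p = 0.0147) and -0.22 ± 0.15 at 24 h (adjusted p = 0.281). At 12 h the adjusted p was 0.193 without Control and 0.0595 without BF.

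All 6 listed genes of BA synthesis, which Shp and Lrh-1 control in part, were tested. At 4 h 2 of these were lower than at 0 h, against 32.4% of all genes. At 12 h 3 of the 6 were lower, against 22.5% of all genes, and none was higher at either time. At 4 h 1 was called without Control, 1 without BA and 1 without the BA column at 4 h alone. CYP7A1 was lower at 4 h (log2 difference -4.16 ± 0.48 SE, adjusted p = 0.000479) and at 12 h (log2 difference -2.64 ± 0.48, adjusted p = 0.00443). Its levels at 4 h were 4.59 RPKM for Control, 13.8 RPKM for BF and 1.81 RPKM for BA. AKR1D1, a steroid reductase of the pathway, was lower at 12 h (log2 difference -2.12, adjusted p = 0.00148). CYP7A1 and NR0B2 were therefore both below their 0 h levels at 4 h and at 12 h in all 3 arms.

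FGFR4, the hepatocyte receptor for Fgf15, fell by a small amount. Over the arms its log2 ratio to 0 h was -0.85 to -0.62 at 4 h and -0.53 to -0.21 at 12 h. Control had 15.8 RPKM at 0 h, 9.60 at 4 h, 10.7 at 12 h and 17.9 at 24 h. BF had 17.0, 10.7, 14.7 and 17.4 RPKM, and BA 18.9, 10.02, 13.2 and 18.9 RPKM. Every column at 4 h and 12 h was below every column at 0 h, and the columns at 24 h overlapped those at 0 h. The log2 difference was -0.71 ± 0.10 (SE) at 4 h (adjusted p = 0.00108), -0.40 ± 0.10 at 12 h (adjusted p = 0.0187) and 0.066 ± 0.10 at 24 h (adjusted p = 0.649). At 12 h no call was made without Control (adjusted p = 0.193), without BF (0.0503) or without BA (0.109).

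The ligand gene FGF15 is listed at 0 RPKM in all 12 liver columns. Of 12 other genes of Fgf receptor signalling tested, 3 were lower and 1 higher at 4 h, against 32.4% and 12.9% of all genes. At 12 h 5 of the 12 were lower, against 22.5% of all genes. With rescaled columns, 3 were higher and 2 lower at 4 h, and at 12 h 1 was lower without Control and 1 without BF. At 4 h 1 was lower without BF. Without the BF column at 12 h 3 were lower at 12 h, and without the BA column at 4 h 3 were lower and none higher at 4 h. FGFR3 was lower at 4 h (log2 difference -1.25 ± 0.15 SE, adjusted p = 0.000559), from 4.92 to 7.60 RPKM at 0 h to 1.58 to 2.17 RPKM. The adaptor GAB1 was lower at 4 h (log2 difference -0.81, adjusted p = 0.0041) and at 12 h (log2 difference -0.79, adjusted p = 0.00731). FGFR1 was lower at 12 h (log2 difference -0.42, adjusted p = 0.0134) and did not pass with rescaled columns (log2 difference -0.30, adjusted p = 0.0785). SPRY2, a feedback inhibitor of the pathway, was 0.41 higher at 4 h (adjusted p = 0.0273), and 0.28 higher without the BA column at 4 h (adjusted p = 0.112).

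Nuclear receptors outside the members were read beside them. The 18 tested included NR1H2, the gene of Lxr beta, which the list of Lxr targets also held. At 4 h 10 were lower and 1 higher, against 32.4% and 12.9% of all genes. At 12 h 8 were lower and at 24 h 3, against 22.5% and 5.54% of all genes. The number of lower genes at 4 h was 7 to 9 when each arm was left out, and at 12 h it was 2 without Control and 4 without BF or without BA. Without the BF column at 12 h 11 were lower at 4 h, and without the BA column at 4 h 9 were lower at 12 h. RXRG, a second Rxr, fell by 1.80 on the log2 scale at 4 h, with an adjusted p of 0.00337. The thyroid hormone receptor THRB was lower at 4 h (log2 difference -1.43, adjusted p = 0.00843) and the fatty acid receptor PPARA at 12 h (log2 difference -1.68, adjusted p = 0.0315). NR1D1, a repressor of the circadian clock, was lower at 12 h (log2 difference -2.50, adjusted p = 0.0102) and at 24 h (log2 difference -1.78, adjusted p = 0.0340). It went in Control from 70.03 RPKM at 0 h to 12.3, 3.75 and 25.4 RPKM, in BF from 17.8 to 13.6, 5.10 and 2.56 RPKM, and in BA from 16.0 to 4.03, 3.30 and 4.96 RPKM. At 4 h its log2 difference was -1.51 (adjusted p = 0.0512), which did not pass. NR1D1 was thus called lower at 12 h, as 5 members were, and also at 24 h, when no member was called. Its part in the members' changes was not tested.

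Among 13 coregulators tested, 3 were higher and 4 lower at 4 h, against 12.9% and 32.4% of all genes. At 12 h 5 of the 13 were lower, against 22.5% of all genes. At 12 h 1 was lower without Control, 2 without BF and none without BA. Without the BF column at 12 h 4 were lower at 12 h, and without the BA column at 4 h 2 were lower at 4 h. At 24 h 3 were higher, against 30.6% of all genes, and none of the 3 passed with rescaled columns or without BF. PPARGC1A, a coactivator of several nuclear receptors, was 1.87 ± 0.25 (SE) higher at 4 h (adjusted p = 0.000726), from 0.74 to 1.42 RPKM at 0 h to 4.35 to 10.4 RPKM. The methyltransferase PRMT1 was 0.74 higher at 4 h (adjusted p = 0.00528). NCOA2, a p160 coactivator, was lower at 4 h (log2 difference -0.79, adjusted p = 0.00577) and at 12 h (log2 difference -0.67, adjusted p = 0.0178). TBL1XR1, a subunit of corepressor complexes, was lower at 12 h (log2 difference -0.83, adjusted p = 0.0220).

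**Figure D3:**
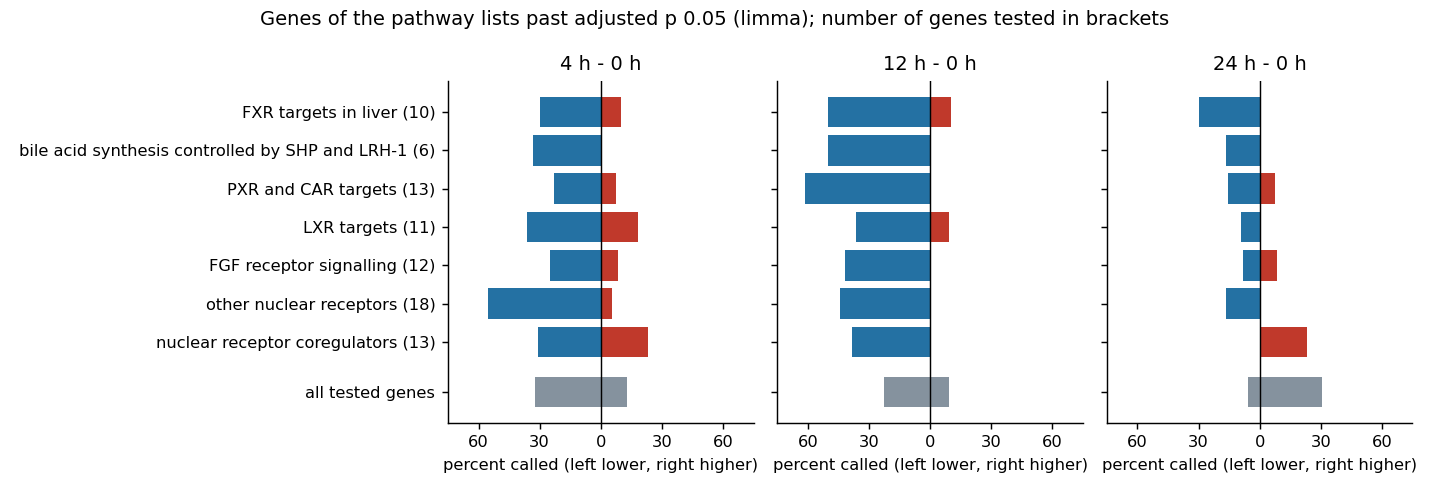
Percent of the tested genes of each list, with the number tested in brackets, that were called lower (left) or higher (right) than at 0 h in limma at an adjusted p of 0.05, for 4, 12 and 24 h, and the same over all genes tested in grey. The longest bar to the left is that of Pxr and Car targets at 12 h, 8 of 13 genes, where 22.5% of all genes were called lower.

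The arms were compared over the 4 times in the same fit, whose adjusted p asks whether a difference was steady over the times. No member passed in any of the 3 comparisons of arms, which were BF against Control, BA against Control and BF against BA and where 0.804% (0.319% higher and 0.485% lower), 0.0709% and 0.0118% of all genes tested were called by limma. Unadjusted p under 0.05 was reached by 2, 2 and 1 of the 8 members, and by 1852, 1919 and 661 of the 8459 genes. The median log2 difference of the members was -0.16, -0.21 and 0.24 in the 3 comparisons, against -0.11, -0.14 and 0.030 over all genes. BF against Control and BA against Control share the Control columns. The study itself reports that Fxr and Shp differed significantly at various times. The fit here does not test a difference at a single time.

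NR0B2 was lower in both fistula arms than in Control, by a fitted log2 difference of -1.51 ± 0.38 (SE) in BA (unadjusted p = 0.00312, adjusted p = 0.101) and of -1.03 ± 0.38 in BF (unadjusted p = 0.0244, adjusted p = 0.170), neither of which passed. In BA it was below Control at 4 of 4 times and in BF at 3 of 4. At 0 h Control was 3.32 times BA and 2.09 times BF, at 4 h 5.71 times BA and 7.29 times BF, and at 24 h 5.61 times BA and 2.90 times BF. At 12 h, when the arms were at 0.36 to 1.21 RPKM, BF was above Control. Without the 12 h columns, the difference of BA from Control was -1.99 with an adjusted p of 0.0352. It was -1.55 with an adjusted p of 0.244 without the BA column at 4 h.

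Of the 6 listed genes of BA synthesis, 3 passed in BF against Control. These were CYP7A1, CYP8B1 and CYP7B1, at log2 differences of 2.61 (adjusted p = 0.0335), 2.76 (adjusted p = 0.00124) and 1.41 (adjusted p = 0.0230). Whether Shp had a part in this was not tested. Without a filter on low values CYP7A1 (adjusted p = 0.0811) and CYP7B1 (adjusted p = 0.0669) did not pass, and without BA at 4 h CYP7A1 did not (adjusted p = 0.0520). With the columns at 0, 4 or 24 h left out, neither CYP7A1 (adjusted p = 0.211, 0.123 and 0.117) nor CYP7B1 (adjusted p = 0.157, 0.101 and 0.0784) passed, and CYP8B1 did not pass without those at 4 h (adjusted p = 0.0529). In BA against Control CYP7A1 was at -0.51 (adjusted p = 0.464) and CYP8B1 at -0.093 (adjusted p = 0.808), neither of which passed. CYP8B1 was the 1 gene of all 8459 to pass in BF against BA, at 2.85 (adjusted p = 0.00185), and 2 of the BA synthesis genes passed without BF at 12 h. NR0B2 differed between BF and BA by 0.49 ± 0.38 (95% interval -0.375 to 1.349, adjusted p = 0.749). CYP3A18, a Pxr and Car target, was the 1 other list gene called in an arm comparison, at -1.97 in BF against Control (adjusted p = 0.0242). It did not pass without a filter (adjusted p = 0.0669), without BF at 12 h (adjusted p = 0.0589) or when the columns at 0, 4 or 24 h were left out (adjusted p = 0.117, 0.123 and 0.0777). Its levels at 0 h were 855 RPKM for Control, 235 RPKM for BF and 239 RPKM for BA.

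NR1H4 differed by 0.48 ± 0.20 (SE) on the log2 scale between BF and Control (95% interval 0.029 to 0.93, adjusted p = 0.205). BF was above Control at 0, 12 and 24 h, by 1.31, 1.72 and 1.87 times, and below it at 4 h. Against BA the difference was 0.41 ± 0.20 (adjusted p = 0.665), with BF higher at 4 of 4 times. NR1H3 was also higher in BF than in BA at 4 of 4 times, by 0.36 ± 0.14 (unadjusted p = 0.0298, adjusted p = 0.606). NR1I2 was lower in BF than in Control at 4 of 4 times, with a fitted difference of -0.34 ± 0.19 (adjusted p = 0.314), and lower in BA at 3 of 4 times, with -0.52 ± 0.19 (adjusted p = 0.168). None of these differences passed.

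The remaining members differed less between arms or not evenly over the times. NR1I3 was at -0.48 ± 0.43 (SE) in BF against Control (adjusted p = 0.536) and -0.77 ± 0.43 in BA (adjusted p = 0.303). NR5A2 was at -0.18 ± 0.13 and -0.23 ± 0.13 (adjusted p = 0.422 and 0.306). FGFR4 was at 0.16 ± 0.091 in each arm against Control (adjusted p = 0.335 in BF and 0.306 in BA), and RXRA at -0.13 ± 0.14 and -0.059 ± 0.14 (adjusted p = 0.602 and 0.810). For FGFR4 the 95% interval of BF against BA was -0.21 to 0.20, and for RXRA -0.38 to 0.24.

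At single times, a member was called where the log2 ratio of 2 columns was 1 or more in size, with no test. At 0 h NR0B2 was called in BF against Control, where 3.89% of all genes were called, and NR0B2 and NR1I3 in BA against Control, where 4.02% were. The log2 ratio of NR0B2 in BF against Control was -1.03, and after rescaling it was -0.86, under the limit. NR1I3, whose levels were then 77.8, 56.6 and 24.0 RPKM for Control, BF and BA, was the 1 member called in BF against BA, where 1.82% of genes were. At 4 h NR0B2 and NR1I3 were called in BF against Control (4.35% of genes), and NR0B2, NR1I3 and NR1I2 in BA against Control (7.28% of genes). NR1I2 at 4 h, with 118 RPKM in Control, 97.6 in BF and 50.7 in BA, rests on the column with high albumin, and after rescaling its log2 ratio was -0.96, under the limit. At 12 h no member was called in any of the 3 comparisons, where 3.52%, 1.71% and 1.92% of genes were. BF against BA gave no member at 4 h (4.72% of genes) or at 24 h (1.86% of genes) either. At 24 h NR0B2 was called in BF (2.08% of genes) and in BA (2.05% of genes) against Control. All of these calls against Control were of lower levels in the fistula arms.

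**Figure D4:**
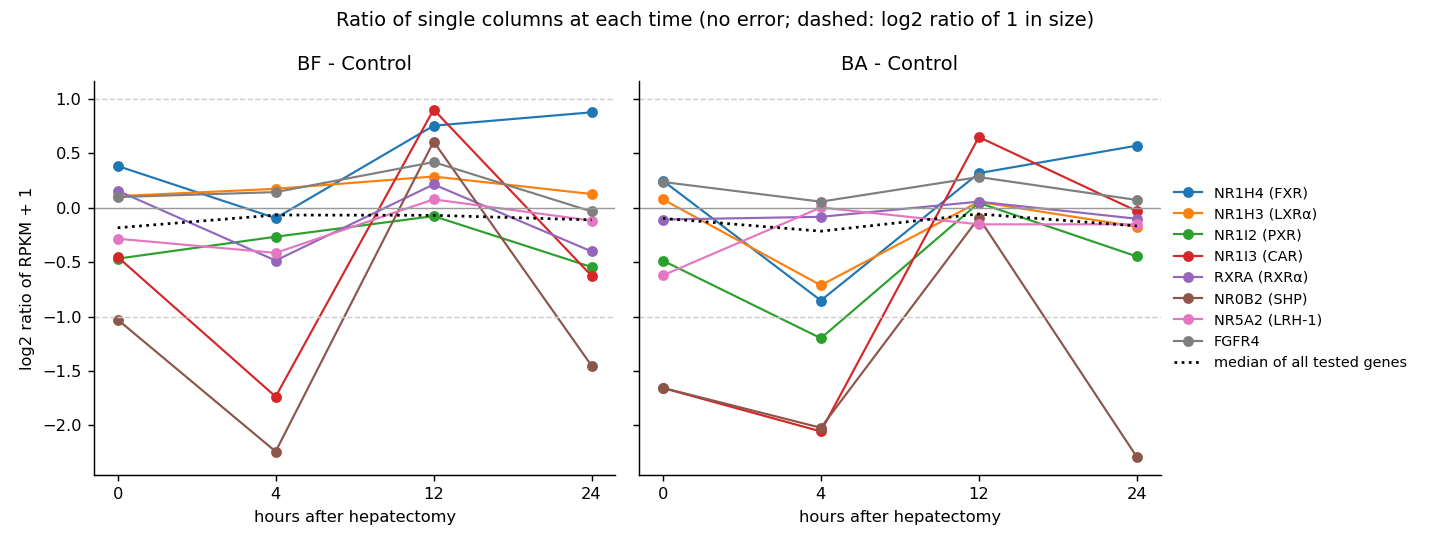
Log2 ratio of RPKM + 1 of BF to Control (left) and of BA to Control (right) at 0, 4, 12 and 24 h after PH, 1 line per member, with the median of all genes tested dotted and a ratio of 1 in size dashed. NR0B2 and NR1I3 lie lowest at 4 h in both arms, at -2.24 and -1.74 in BF and -2.02 and -2.06 in BA, and close to or above 0 at 12 h.

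Pairs of members were compared over the 12 columns by Pearson's r on log2 of RPKM + 1, as a description without a test, since the columns share arms, times and libraries. NR1H4 was closest to FGFR4 (r = 0.88) and NR1H3 (r = 0.87), and NR0B2 to NR5A2 (r = 0.87). NR1H3 and FGFR4 had r = 0.86. NR1I2 had an r between -0.061 and 0.55 with every other member. NR1H4 and NR0B2, a receptor and its target gene, had r = 0.57.

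By the same measure, the genes most like each member among those tested were named. NR1H4 was closest to the alcohol dehydrogenase ADH4 and the transcription factor SOX6 (both r = 0.96). NR1I3 was closest to the histone deacetylase HDAC11 (r = 0.98) and ABTB1 (r = 0.97), and NR0B2 to RGD1306809 (r = 0.98) and SH2D4A (r = 0.97). NR1H3 was closest to RGD1305587 (r = 0.99) and the phosphatase DUSP19 (r = 0.98), and FGFR4 to the integrin gene ITGAL (r = 0.99) and USP54 (r = 0.98). For NR5A2 these were GCH1 and DYRK2 (both r = 0.94), for NR1I2 BRE (r = 0.93) and UNC50 (r = 0.91), and for RXRA RIN2 (r = 0.91) and the lysosomal membrane gene LAMP1 (r = 0.88).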

How the data were processed

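Whole-liver RNA was sequenced from TruSeq poly(A) libraries as single reads. The submitters' processing notes name CASAVA, Bowtie 0.12.2 and the builds rn4 and mm8 without a role. The authors computed RPKM and deposited them to 2 decimals, 1 column per arm and time, each combining 2 runs. The weights of the runs, the annotation and the read totals are not given in the sources used here, so depth and counting error are unknown.

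Groups follow the sample titles. The members and the gene lists were chosen with earlier results of these data known. The 8459 of 14692 genes whose mean over the columns reached 1 RPKM were put on the log2(RPKM + 1) scale, which understates changes of low genes. An additive model of arm and time was fitted with limma 3.58.1 (R 4.3.3; lmFit, contrasts.fit, eBayes with trend) and p-values were adjusted by Benjamini-Hochberg over the 8459 genes of each comparison, with a threshold of 0.05. The study itself ran gene set enrichment, which was not run here. The fit was run on simulated data with independent errors and an arm shift that was the same at every time. Since the simulation followed the model that was fitted, it does not show how the fit performs on these columns. Single columns were compared as log2 ratios, called at 1 in size. Tables and plots were made with Python 3.11.15 (pandas 2.3.3, numpy 2.4.6, matplotlib 3.10.9).

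Named genes were all members, CYP7A1 and CYP8B1, up to 4 called genes of each list with the largest difference in any comparison, and the 2 genes most correlated with each member. CTRB1 and PRSS1 were named as acinar markers, and ALB, FGF15, ABCB11 and ABCC2 were picked out after their values were seen. Alternatives were a pseudocount of 0.1 RPKM, no filter or a mean of 5 RPKM, columns rescaled on their median gene, eBayes without trend, each arm or time left out, and the fit without BF at 12 h. The fit without BA at 4 h was chosen after seeing the data. Older symbols were matched through RefSeq names. Promoter windows of 250 bases were taken from RefSeq on GRCr8.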

Additional observations from a re-analysis of the deposited data

Results flagged for a closer look

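For 3 members the ratio of 2 arms pointed in opposite directions at different times, by a log2 ratio of at least 0.5 in size at each. With 1 column per arm and time none of these differences was tested. NR1H4 in BA against Control was at -0.85 at 4 h and 0.57 at 24 h, a difference of -1.42. NR0B2 in BF against Control was at -1.03 at 0 h, -2.24 at 4 h, 0.61 at 12 h and -1.45 at 24 h. The differences from 12 h were -1.64 at 0 h and -2.85 at 4 h, and 12 h less 24 h was 2.06. NR0B2 was then at 0.45 RPKM in Control and 1.21 RPKM in BF, and BF at 12 h is the column with pancreatic enzyme transcripts.

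NR1I3 in BF against Control was at -1.74 at 4 h, 0.90 at 12 h and -0.63 at 24 h, with differences of -2.64 for 4 h less 12 h and 1.53 for 12 h less 24 h. In BA against Control NR1I3 was at -1.66 at 0 h, -2.06 at 4 h and 0.65 at 12 h, with differences of -2.31 and -2.70 from 12 h. Between BF and BA it was at 1.203 at 0 h and -0.60 at 24 h, a difference of 1.80.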

How the results depend on the processing

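The 5 members called at 4 h were called under all 10 alternatives run for the time comparisons, and at 12 h only NR0B2 was. Leaving out 1 arm gave 1 to 3 members at 12 h, 2155 to 2499 genes at 4 h, 789 to 1821 at 12 h and 752 to 2583 at 24 h. Leaving out 1 time gave 0 to 36 genes in BF against Control, 0 to 15 genes and 0 to 1 members in BA against Control, and 0 to 2 genes in BF against BA. Without a filter, BF against Control gave 2 genes and BA against Control 0. Without BF at 12 h, BF against Control gave 10 genes and BF against BA 3, and without BA at 4 h BA against Control gave 0. The cause was not tested.

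Differences near 0 changed sign. With rescaled columns, RXRA in BA against Control was at 0.076, and at 24 h NR1I2 was at -0.10, NR1H3 at -0.073 and FGFR4 at -0.15. Without 1 time, NR1H4 in BA against Control ranged from -0.095 to 0.38. In BF against BA without 1 time, NR5A2 ranged from -0.051 to 0.20, NR1I3 from -0.0077 to 0.59, FGFR4 from -0.052 to 0.040, NR1I2 from -0.067 to 0.28 and RXRA from -0.18 to 0.041. NR5A2 was there at -0.029 without BF at 12 h, and NR1I2 at -0.055 without BA at 4 h. RXRA at 24 h ranged from -0.27 to 0.011 without 1 arm. Over all fitted values of members under alternatives, 471 kept direction and side of the threshold, 17 changed sign, 10 lost the threshold and 6 gained it.

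For single columns, 0.1 RPKM in place of 1 gave 299, 698 and 301 genes in BF against BA at 0, 4 and 12 h, and at 12 h 460 in BF and 258 in BA against Control. At 12 h it added NR0B2, as 1 member in each comparison of BF. With rescaled columns, 0 members were called in BF against Control at 0 h, 2 at 24 h against 0 h in BF and 1 at 12 h against 0 h in BA. The fit itself pairs columns by time or by arm, and no column holds a single replicate that could be paired beyond that. Read depth is unknown and sets no limit that can be stated.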
